A study of Homo sapiens with 9 samples.

Results

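A set of 8 genes of receptor signalling at the cell surface were followed through untreated, oxaliplatin-adapted and sorafenib-adapted cells. They are the receptor tyrosine kinases MET, MST1R, AXL, TYRO3, MERTK and EPHA2, the TAM receptor ligand GAS6, and CDCP1, a membrane protein that works with SRC family kinases. They were chosen by name with earlier results of these data known, as were the gene lists used below. Shares of these genes set beside those of all genes are therefore descriptions, not independent tests. All 8 of 8 names were found among the 60683 genes of the count files, each as a single row. Of the 8, 7 passed the filter on low counts, which left 16159 genes to be tested. MST1R did not pass.

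The libraries were made from mRNA of wild-type cells labelled HCT-15, an established line from a human colorectal adenocarcinoma, with 3 libraries in each of 3 groups. All 9 sample titles also carry the number 769, whose meaning no label gives. The untreated group received no drug. Cells of the oxaliplatin group, exposed to a platinum compound that binds DNA, were started at 0.5 µM for 7 days, were taken through 1, 2 and 4 µM between day 10 and day 30, and were then kept at 4 µM. Sorafenib, an inhibitor of RAF kinases and several receptor tyrosine kinases, was used in a like manner, with doses not given in the sources used here. No label says whether the 3 libraries of a group came from separate cultures, so the p-values reflect spread among libraries that may be no more than technical repeats.

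MET is the receptor for hepatocyte growth factor (HGF), and MST1R, also called RON, is its closest relative and binds macrophage-stimulating protein, the product of MST1. AXL, TYRO3 and MERTK form the TAM family, whose vitamin K-dependent ligands bridge the receptors to phosphatidylserine. These are GAS6 and, for TYRO3 and MERTK, protein S (PROS1). EPHA2 binds membrane-anchored ephrin-A ligands on neighbouring cells and can also signal without them, and CDCP1 is cleaved by serine proteases and phosphorylated by SRC. In epithelial tumours these receptors are known for their part in invasive growth and in tolerance of kinase inhibitors and cytotoxic drugs.

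The promoters of the 4 genes on which the results turn are shown because AXL, EPHA2 and CDCP1 were high and low in the same groups whereas MET was not. Each is the stretch of 250 bases before the RefSeq start site (build GRCh38.p14), read 5′ to 3′ on the gene's strand. Capitals mark matches, on either strand, to GGGCGG (the core of an SP1 site) or GGAATG (the core of a TEAD site).
MET, chr7:116671946-116672195, plus strand: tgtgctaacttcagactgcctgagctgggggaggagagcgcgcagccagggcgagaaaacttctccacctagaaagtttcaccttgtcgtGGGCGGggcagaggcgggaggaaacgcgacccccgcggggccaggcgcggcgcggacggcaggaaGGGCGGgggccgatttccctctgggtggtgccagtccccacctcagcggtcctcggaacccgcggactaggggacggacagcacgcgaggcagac
AXL, chr19:41218973-41219222, plus strand: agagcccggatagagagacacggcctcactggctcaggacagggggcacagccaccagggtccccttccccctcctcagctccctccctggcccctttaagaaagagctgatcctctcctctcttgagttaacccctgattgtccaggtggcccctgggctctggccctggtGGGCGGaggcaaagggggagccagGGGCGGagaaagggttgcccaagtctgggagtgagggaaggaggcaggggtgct
EPHA2, chr1:16156070-16156319, minus strand: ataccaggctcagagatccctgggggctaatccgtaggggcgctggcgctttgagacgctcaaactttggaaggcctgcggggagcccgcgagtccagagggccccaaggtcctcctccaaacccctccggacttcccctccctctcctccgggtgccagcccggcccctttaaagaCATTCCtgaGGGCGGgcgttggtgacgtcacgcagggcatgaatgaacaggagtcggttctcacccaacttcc
CDCP1, chr3:45146379-45146628, minus strand: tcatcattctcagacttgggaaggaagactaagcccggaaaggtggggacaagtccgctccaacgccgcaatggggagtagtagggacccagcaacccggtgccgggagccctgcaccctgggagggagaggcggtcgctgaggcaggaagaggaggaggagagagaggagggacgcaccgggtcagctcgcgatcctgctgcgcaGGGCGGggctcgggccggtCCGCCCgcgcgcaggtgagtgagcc
All 8 genes were matched by symbol in the RefSeq table, and for AXL the first of its start sites is shown. GGGCGG was present 2 times in the windows of MET, AXL and CDCP1 and once in that of EPHA2, and it occurs in 42.6% of the 35116 promoters of this length. GGAATG had 1 match, in EPHA2, between 73 and 68 bases before the start site, against 11.9% of all promoters. The window of AXL's second start site, not shown, also held one, as CATTCC between 212 and 207 bases before that start. None of the 4 windows held TGANTCA (AP-1), CCGGAAGT (ETS) or CACGTG (an E-box), which occur in 6.6%, 3.4% and 6.3% of promoters and were also searched on both strands. GC content was 68.4% for MET, 64.4% for AXL, 63.2% for EPHA2 and 67.6% for CDCP1, against a median of 58.0% over all promoters. A match is a string of letters, not a measured site.

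Each library held between 15797076 and 20936536 counts. The labelled cell type was checked against marker lists drawn up with earlier results of these data known. All 12 markers of colorectal epithelium had a median under 1 CPM (counts scaled to library size with TMM factors), and 7 of them, CDX1, CDX2, CDH1, KRT20, HNF4A, CEACAM5 and PHGR1, were at 0 in every library. Their summed level was 1.64 to 8.59 CPM in untreated, 0.365 to 1.14 CPM in oxaliplatin and 0.681 to 1.41 CPM in sorafenib libraries. VIL1 alone ran from 0.176 to 7.27 CPM in untreated libraries and reached at most 0.0917 CPM with oxaliplatin and 0.107 CPM with sorafenib. It shares 44.0% of its exon length with USP37 on the other strand. EPCAM, the 1 of the 12 with enough counts to be tested, was called lower with oxaliplatin (log2 -1.39, adjusted p = 0.0220 by edgeR). All 10 markers of renal epithelium had a median of at least 1 CPM. Their summed level ran from 426 to 609 CPM in untreated, from 727 to 782 CPM in oxaliplatin and from 642 to 715 CPM in sorafenib libraries. With oxaliplatin 6 of the 10 were called higher and 1, LRP2, lower (70.0%, beside 31.7% of all genes). With sorafenib 1, HAVCR1, was called higher (10.0%, beside 4.8%). HAVCR1 had 51.7 to 95.5 CPM untreated and 187 to 242 CPM with oxaliplatin, whereas PAX8 overlapped (247 to 346 and 287 to 336 CPM). The part of these shifts in the results on the receptors was not tested. Of 9 markers of macrophages and other leukocytes, 7 had a median under 1 CPM, and PTPRC, CD163, TYROBP and AIF1 were at 0 throughout, with summed levels of 27.1 to 49.3, 21.5 to 59.0 and 18.3 to 51.2 CPM in the untreated, oxaliplatin and sorafenib groups. Of 10 markers of fibroblasts and endothelium, 8 had a median under 1 CPM. The summed level of the 10 was 11.7 to 48.9 CPM in untreated, 16.8 to 25.0 CPM in oxaliplatin and 4.13 to 4.94 CPM in sorafenib libraries. COL1A1 alone had 6.04 to 43.0, 12.6 to 19.8 and 1.18 to 1.93 CPM in the same order. The colorectal label is therefore used below only as a label. Over all tested genes, untreated library 1 correlated with sorafenib library 1 at 0.975, above its 0.971 and 0.972 with the other untreated libraries. Leaving it out gave 4 calls among the 8 genes for oxaliplatin against untreated, with AXL gained (adjusted p = 0.0391) and EPHA2 lost (0.0540), and 2 for sorafenib against untreated.

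The comparisons ask how each adapted population differs from the untreated one, and how the adapted populations differ from each other. CDCP1 differed in every comparison: it was 2.18-fold lower with oxaliplatin and 3.34-fold higher with sorafenib. MET was higher in both drug groups, EPHA2 was lower with oxaliplatin, and AXL was lower with oxaliplatin than with sorafenib. GAS6 was higher with oxaliplatin than in either other group. In edgeR's quasi-likelihood fit, with p-values adjusted (Benjamini-Hochberg) over all 16159 genes, 4 of the 7 tested genes were called at an adjusted p under 0.05 for oxaliplatin against untreated, 2 higher (16.2% of all genes) and 2 lower (15.5%), where 31.7% of all genes were called. For sorafenib against untreated 2 of the 7 were called, both higher (2.82% of all genes) and 0 lower (1.97%), where 4.8% of all genes were called. DESeq2 also called 2. Between the drug groups 4 of the 7 were called, 1 higher (5.2% of all genes) and 3 lower (5.07%) with oxaliplatin, where 10.3% of all genes were called. The libraries of the groups did not overlap for 4 of the 7 genes with oxaliplatin (48.1% of all genes), for 5 with sorafenib (29.8%) and for 5 between the drug groups (34.9%). The median log2 fold change of the 7 was -0.17, 0.28 and -0.41 in the 3 comparisons, beside 0.02, 0.00 and -0.01 over all genes. In bulk libraries fewer cells of a type and less RNA per cell cannot be told apart.

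**Figure D1:**
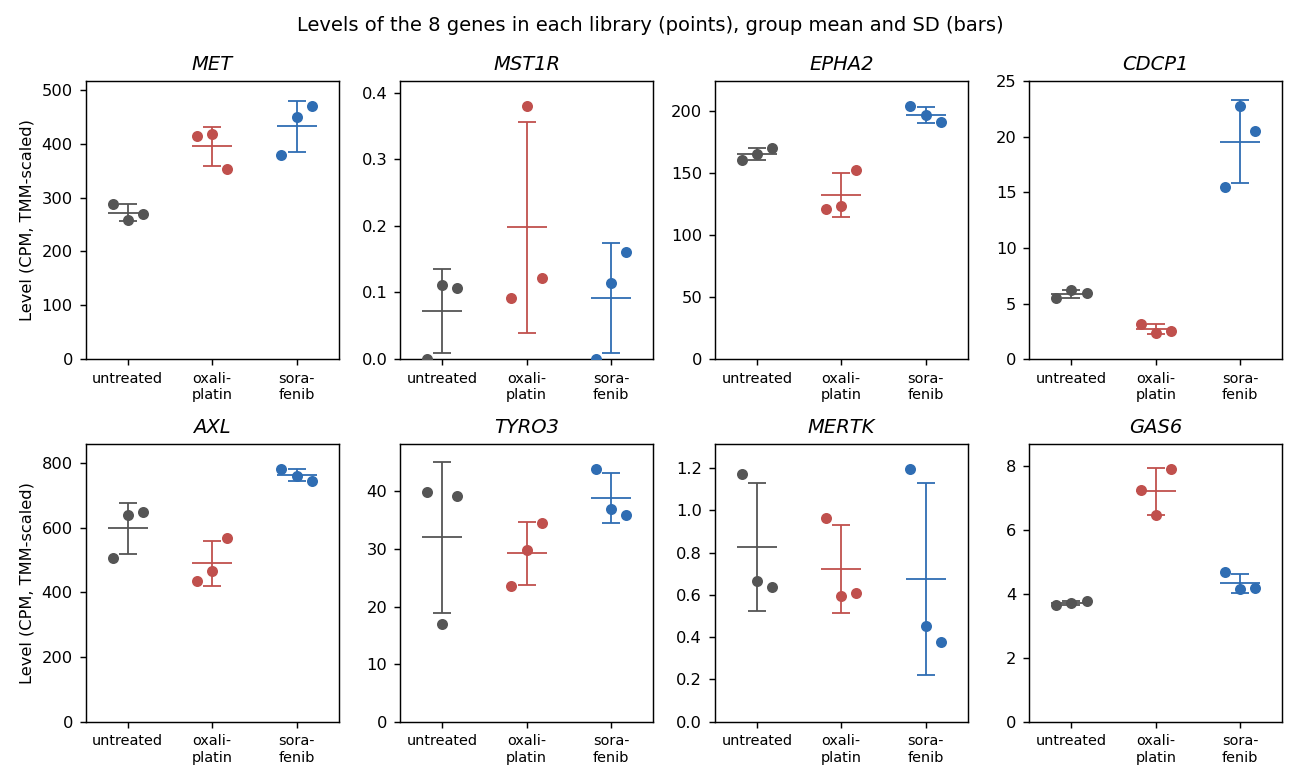
Level of each of the 8 genes in CPM scaled by TMM factors (vertical axes, linear, from 0) in the 3 libraries of each group; points are libraries, and horizontal bars with whiskers are the group mean and SD. CDCP1 and EPHA2 are lowest with oxaliplatin and highest with sorafenib, MET is higher in both drug groups, and MST1R stays under 0.4 CPM in all 9 libraries.

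MET (ENSG00000105976, GRCh38 chr7:116672196-116798386, plus strand) was measured at 288, 258 and 270 CPM in the untreated libraries, at 414, 418 and 352 CPM with oxaliplatin, and at 379, 449 and 470 CPM with sorafenib. Every library of a drug group lay above every untreated library, and the drug groups overlapped each other. Mean levels were 272 ± 15.1 CPM untreated, 395 ± 37.0 CPM with oxaliplatin and 432 ± 47.8 CPM with sorafenib (SD, n = 3 each). MET rose 1.45-fold with oxaliplatin (log2 0.54 ± 0.12 SE, adjusted p = 0.00865) and 1.59-fold with sorafenib (log2 0.67 ± 0.12, adjusted p = 0.0174). Between the drug groups the log2 difference was -0.13 ± 0.12 (adjusted p = 0.503). With a correction for GC content and transcript length the rise with oxaliplatin shrank to a log2 of 0.24 (adjusted p = 0.0452), and MET transcripts have a GC content of 45.1%. The sorafenib call was lost without untreated library 2 (adjusted p = 0.0797) or 3 (0.0724) and without sorafenib library 2 (0.0759) or 3 (0.0851).

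MST1R (ENSG00000164078, chr3:49887002-49903873, minus strand) had 20 counts in all. They numbered 0, 2 and 2 in untreated, 2, 7 and 2 in oxaliplatin and 0, 2 and 3 in sorafenib libraries, so that no library exceeded 0.380 CPM. A count of 0 allows a level of up to 0.176 CPM in untreated library 1 and 0.163 CPM in sorafenib library 1, from 3 counts and for counting error only. At this depth MST1R could not be compared between groups.

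CDCP1 (ENSG00000163814, chr3:45082277-45146422, minus strand) was measured at 5.46, 6.19 and 5.94 CPM untreated, at 3.16, 2.33 and 2.55 CPM with oxaliplatin and at 15.5, 22.8 and 20.5 CPM with sorafenib. The groups did not overlap in any pairing, and the untreated libraries lay between the drug groups. In raw counts these levels rest on 93 to 112 reads untreated, 42 to 69 with oxaliplatin and 285 to 401 with sorafenib. CDCP1 fell 2.18-fold with oxaliplatin (log2 -1.12 ± 0.20, adjusted p = 0.00400) and rose 3.34-fold with sorafenib (log2 1.74 ± 0.19, adjusted p = 0.00191). The direct comparison gave a level 7.26-fold lower with oxaliplatin than with sorafenib (log2 -2.86 ± 0.20, adjusted p = 8.24e-05). All 3 calls held in each of the 17 alternative settings tried.

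EPHA2 (ENSG00000142627, chr1:16124337-16156069, minus strand) ranged in the same order over a much narrower span. Its untreated libraries held 161, 165 and 170 CPM, the oxaliplatin libraries 121, 123 and 152 CPM, and the sorafenib libraries 204, 197 and 191 CPM. No group overlapped another, although oxaliplatin library 3 came close to the untreated ones. EPHA2 was 1.25-fold lower with oxaliplatin than untreated (log2 -0.32 ± 0.11, adjusted p = 0.0458) and 1.49-fold lower with oxaliplatin than with sorafenib (log2 -0.58 ± 0.11, adjusted p = 0.0114). For sorafenib against untreated the log2 difference was 0.25 ± 0.11 (adjusted p = 0.181). The oxaliplatin call against untreated was lost in 12 of the 17 alternatives, with EPHA2 at adjusted p-values from 0.0110 to 0.163 over all of them; among these, leaving out any untreated library gave 0.0540 to 0.121, oxaliplatin library 1 or 2 0.163 and 0.141, and sorafenib library 2 or 3 0.0658 and 0.0652. Against sorafenib the call was lost without oxaliplatin library 1 (adjusted p = 0.0604) or 2 (0.050).

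AXL (ENSG00000167601, chr19:41219223-41261766, plus strand), the most abundant of the 8 genes, was measured at 507, 638 and 647 CPM untreated, at 434, 467 and 568 CPM with oxaliplatin and at 781, 760 and 744 CPM with sorafenib. The sorafenib libraries lay above all others, whereas untreated and oxaliplatin libraries overlapped. Against untreated neither drug group passed the test: the log2 difference was -0.29 ± 0.13 with oxaliplatin (adjusted p = 0.123) and 0.35 ± 0.13 with sorafenib (adjusted p = 0.138). Between the drug groups AXL was 1.56-fold lower with oxaliplatin (log2 -0.64 ± 0.13, adjusted p = 0.0175). That call was lost without oxaliplatin library 1 (adjusted p = 0.0778) or 2 (0.0674) and without sorafenib library 1 (0.0511). AXL was called lower with oxaliplatin than untreated without untreated library 1 (adjusted p = 0.0391) or oxaliplatin library 3 (0.0427). An exon of AXL shares 67 bases with AC011510.1 on the other strand, a gene of at most 0.217 CPM.

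The other TAM receptors were far less abundant and passed no test. TYRO3 (ENSG00000092445, chr15:41557675-41583589, plus strand) was measured at 40.0, 16.9 and 39.2 CPM untreated, 23.5, 29.8 and 34.5 CPM with oxaliplatin and 43.9, 37.0 and 36.0 CPM with sorafenib, and untreated library 2 was the lowest of the 9. Its log2 differences were -0.13 ± 0.29, 0.28 ± 0.29 and -0.41 ± 0.29 with oxaliplatin and with sorafenib against untreated and between the drug groups, with adjusted p-values of 0.762, 0.584 and 0.396. MERTK (ENSG00000153208, chr2:111898607-112029561, plus strand), best known from phagocytes that clear dying cells, had 7 to 22 counts per library and levels between 0.375 and 1.20 CPM. In each group its first library was the highest, and the groups overlapped (adjusted p = 0.817, 0.765 and 0.910 in the same order). At these counts its standard errors of 0.49 to 0.50 on the log2 scale left only large differences detectable.

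GAS6 (ENSG00000183087, chr13:113820549-113864076, minus strand), the ligand with the highest affinity for AXL, was measured at 3.64, 3.70 and 3.77 CPM untreated, at 7.24, 6.46 and 7.90 CPM with oxaliplatin and at 4.67, 4.14 and 4.18 CPM with sorafenib. The 3 groups did not overlap, and the oxaliplatin libraries stood above the rest. GAS6 rose 1.94-fold with oxaliplatin (log2 0.96 ± 0.16, adjusted p = 0.00366), a call that held in each of the 17 alternatives. It was 1.66-fold higher with oxaliplatin than with sorafenib (log2 0.73 ± 0.16, adjusted p = 0.0214), and the log2 difference for sorafenib against untreated was 0.23 ± 0.17 (adjusted p = 0.422). The call between the drug groups was lost with no filter on low counts (adjusted p = 0.0505), without oxaliplatin library 1 (0.0795) and without sorafenib library 2 (0.0672) or 3 (0.0784). GAS6-AS1, a gene on the other strand, shares 421 exon bases, or 7.01% of the exon length, with GAS6. It was measured at 7.04, 4.70 and 4.19 CPM untreated, 17.1, 12.9 and 16.5 CPM with oxaliplatin and 8.10, 7.49 and 9.11 CPM with sorafenib, and it was higher with oxaliplatin than untreated (log2 1.54 ± 0.22, adjusted p = 0.00186). Since the strand setting of the counting is not given in the sources used here, reads from GAS6 and GAS6-AS1 in the shared bases cannot be told apart.

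**Figure D2:**
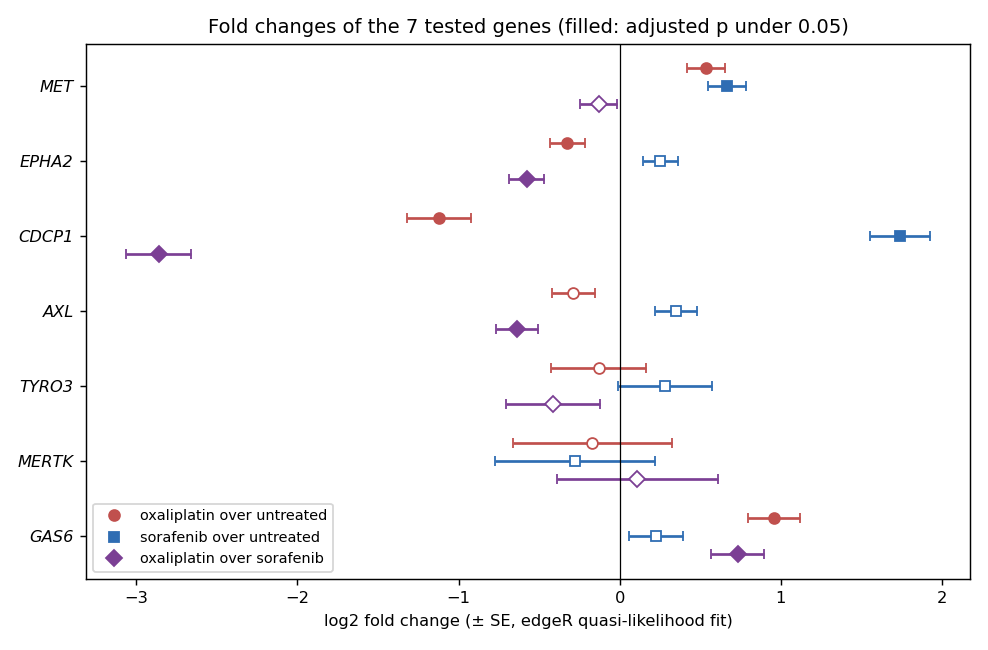
Log2 fold change of each of the 7 tested genes (horizontal axis, with SE) for oxaliplatin over untreated (circles), sorafenib over untreated (squares) and oxaliplatin over sorafenib (diamonds); filled symbols have an adjusted p under 0.05. CDCP1 spans from -2.86 to 1.74 and is filled in all 3 comparisons, while TYRO3 and MERTK are open in all 3.

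AXL, EPHA2 and CDCP1 followed the same order of groups, lowest with oxaliplatin and highest with sorafenib, and differed in span. Across the 9 libraries the log2 levels of EPHA2 and AXL had a Pearson correlation of 0.96, those of CDCP1 and EPHA2 0.89, and those of CDCP1 and AXL 0.87. MET had correlations of 0.09 with AXL, -0.01 with EPHA2 and 0.30 with CDCP1, and GAS6 had -0.55 with AXL and -0.66 with EPHA2. These values describe 9 libraries in 3 groups that share their scaling, and most of the variation in them lies between groups. In the oxaliplatin group library 3 was the highest of the 3 for both EPHA2 and AXL. In that library EPHA2 lay at a log2 of -0.12 and AXL at -0.07 relative to the untreated mean, against -0.45 and -0.46 in oxaliplatin library 1. CDCP1 lay at -1.20 in oxaliplatin library 3 and at -0.89 in library 1.

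**Figure D3:**
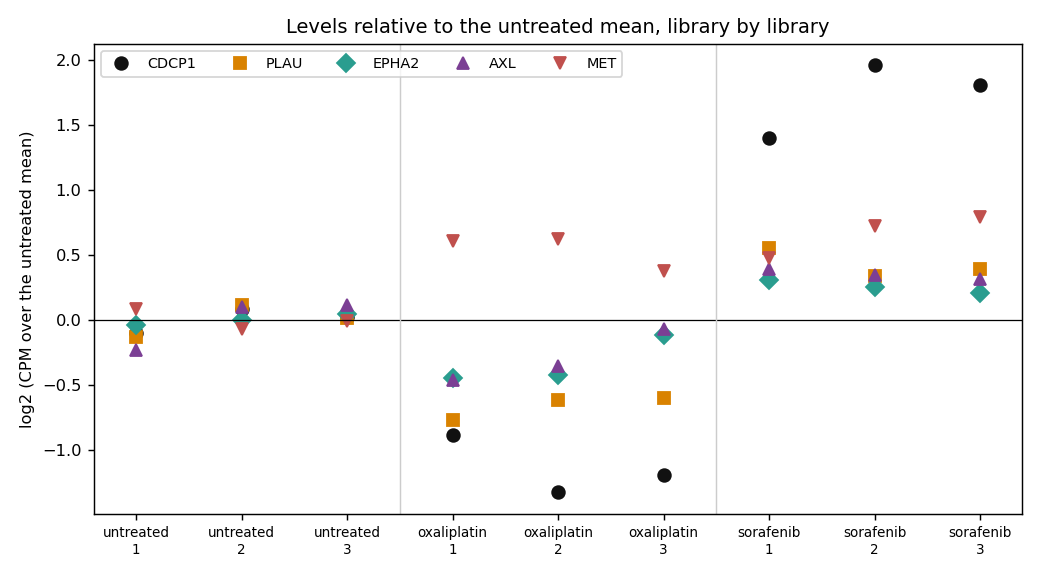
Log2 of the CPM over the mean of the untreated libraries (vertical axis) in each of the 9 libraries (horizontal axis) for CDCP1, PLAU, EPHA2, AXL and MET. CDCP1, PLAU, EPHA2 and AXL are below 0 in all oxaliplatin libraries and above 0 in all sorafenib libraries, and MET is above 0 in all 6 libraries of drug-adapted cells.

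Levels of different genes were compared per length, as CPM per kb of merged exon. In untreated cells AXL led with 116 ± 15.2 CPM per kb, followed by EPHA2 with 39.8 ± 1.18 and MET with 38.7 ± 2.15, whose libraries overlapped. TYRO3 had 2.93 ± 1.20 CPM per kb, CDCP1 0.901 ± 0.0575, GAS6 0.616 ± 0.0107, MERTK 0.175 ± 0.0644 and MST1R 0.0138 ± 0.0119, with no overlap between neighbours in this order. With oxaliplatin MET (56.1 ± 5.26 CPM per kb) stood above EPHA2 (31.8 ± 4.21), and GAS6 (1.20 ± 0.121) above CDCP1 (0.412 ± 0.0661), again without overlap. With sorafenib MET (61.4 ± 6.79 CPM per kb) also stood above EPHA2 (47.4 ± 1.57), and CDCP1 (3.01 ± 0.573) reached the libraries of TYRO3 (3.56 ± 0.396). AXL remained the first of the 8 genes with 95.0 ± 13.6 CPM per kb in oxaliplatin and 147.7 ± 3.62 in sorafenib libraries.

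Among 58 receptor tyrosine kinase genes AXL ranked first in each group by mean level per length. It made up 36.1% of their summed level in untreated, 28.9% in oxaliplatin and 37.1% in sorafenib libraries. AXL, EPHA2 and MET together made up 60.6%, 55.7% and 64.4%. MET was at rank 3 in untreated cells and at rank 2 in both drug groups, while EPHA2 was at rank 2 in untreated, 4 in oxaliplatin and 3 in sorafenib libraries. EGFR, the receptor for epidermal growth factor, was the only other gene among the first 4, with 22.4 ± 1.27 CPM per kb untreated, 37.0 ± 1.43 with oxaliplatin and 35.7 ± 6.52 with sorafenib. TYRO3 ranked 15, 16 and 15 in the same order, and MERTK ranked 25 in each group. In each group 24 of the 58 genes averaged 1 CPM or more, and 12 had no count in any library. These ranks and shares depend on the merged exon lengths. Without division by length EGFR and EPHB2 (232 ± 18.2 CPM) stood above EPHA2 (165 ± 4.93 CPM) in untreated cells.

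**Figure D4:**
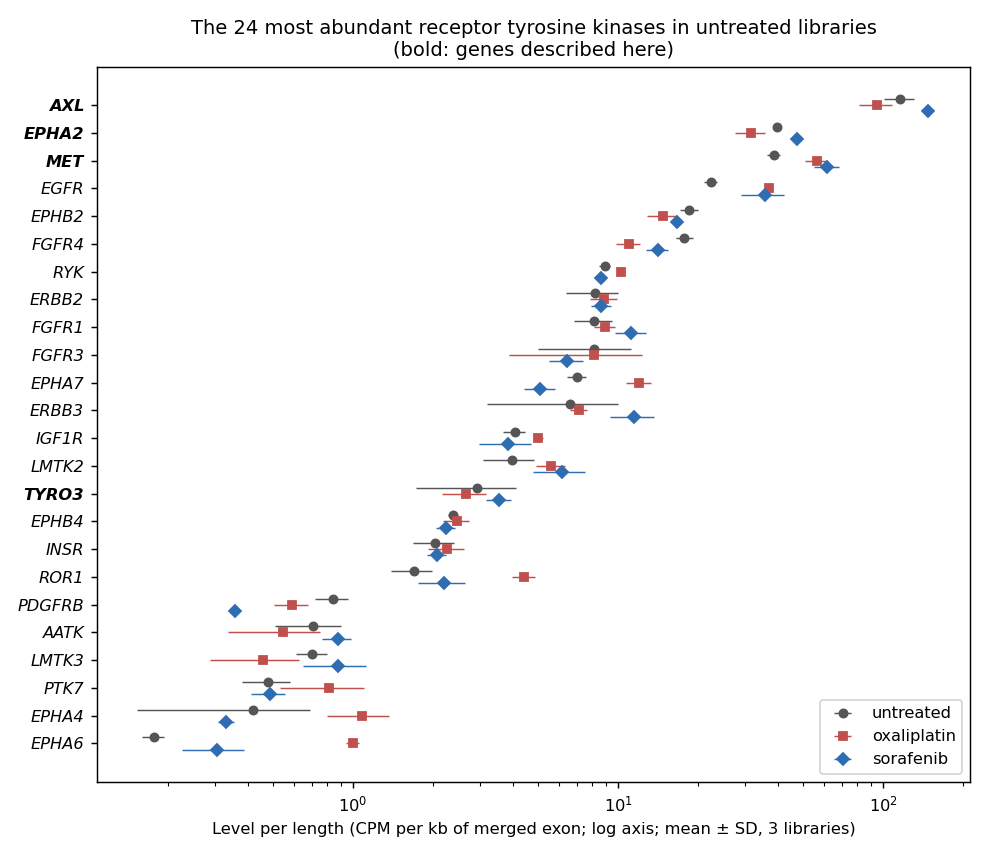
Mean level per length, in CPM per kb of merged exon on a log axis, with SD over 3 libraries, of the 24 receptor tyrosine kinases with the highest level in untreated libraries; circles are untreated, squares oxaliplatin and diamonds sorafenib, and bold names are genes described here. AXL is first in all 3 groups, and MET is above EPHA2 with either drug.

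The ligands of MET and MST1R and the proteases that activate them were scarce, with the exception of PLAU. HGF had 0 counts in every library, which allows a level of up to 0.138 to 0.182 CPM per library. PLAU, the urokinase-type plasminogen activator, which can cleave the HGF precursor and starts the plasmin cascade, was measured at 165, 195 and 182 CPM untreated, 106, 118 and 119 CPM with oxaliplatin and 264, 228 and 237 CPM with sorafenib. The groups did not overlap, and their order matched that of CDCP1, EPHA2 and AXL. PLAU fell 1.58-fold with oxaliplatin (log2 -0.66 ± 0.11, adjusted p = 0.00310) and was 2.13-fold lower with oxaliplatin than with sorafenib (log2 -1.09 ± 0.11, adjusted p = 0.000447). For sorafenib against untreated its log2 difference of 0.43 ± 0.11 did not pass (adjusted p = 0.0510), and 4 of the 17 alternatives called it higher, DESeq2 among them (PLAU adjusted p = 0.0134). Exons of PLAU share 916 bases with C10orf55 on the other strand, a gene of 0.321 to 1.82 CPM. MST1, the ligand gene of MST1R, rose from 1.13 ± 0.649 to 3.04 ± 0.114 CPM with oxaliplatin (SD, n = 3; log2 1.43 ± 0.35, adjusted p = 0.0138), but near-identical gene copies make its counts uncertain, and the call was lost without untreated library 2 (adjusted p = 0.0559). SPINT2, an inhibitor of the proteases that activate HGF, had 361 ± 29.2 CPM untreated and 284 ± 24.5 CPM with oxaliplatin (adjusted p = 0.0610). ST14, which encodes matriptase, a protease that cleaves CDCP1 and the HGF precursor, was at no more than 0.880 CPM in any library. Of 13 genes in this list 8 were tested: 1 rose and 1 fell with oxaliplatin (25.0%, beside 31.7% of all genes called). Between the drug groups 1 was lower with oxaliplatin (12.5%, beside 10.3%). For sorafenib against untreated 0 were called (beside 4.8%), where 3 had an unadjusted p under 0.05 in edgeR and DESeq2 called 1.

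Among ligands of the TAM receptors PROS1, which encodes protein S, was the most abundant transcript, with 3.77 ± 0.570 CPM per kb untreated beside 0.616 for GAS6. PROS1 was measured at 23.1, 17.1 and 21.4 CPM untreated, 40.7, 59.8 and 48.1 CPM with oxaliplatin and 47.0, 32.2 and 32.4 CPM with sorafenib. Both drug groups lay above all untreated libraries and overlapped each other. PROS1 rose 2.41-fold with oxaliplatin (log2 1.27 ± 0.20, adjusted p = 0.00294) and 1.81-fold with sorafenib (log2 0.86 ± 0.20, adjusted p = 0.0421), and the second call was lost in 11 of the 17 alternatives (PROS1 adjusted p from 0.00406 to 0.154). A near-identical pseudogene of PROS1 makes the split of its reads uncertain. GGCX, the carboxylase that makes GAS6 and protein S functional, rose 1.32-fold with oxaliplatin (log2 0.40 ± 0.10, adjusted p = 0.0149). The call was lost with the correction for GC content and length (GGCX log2 0.14, adjusted p = 0.278), without untreated library 2 (0.0604) or oxaliplatin library 1 (0.0634), and with no filter (0.0536). On the other strand MAT2A, a gene of 287 to 482 CPM, shares 558 exon bases with GGCX (35.8 ± 0.819 CPM untreated). Without a stated strand setting the reads of GGCX and MAT2A in these bases cannot be told apart, and their part in the rise was not tested. Of the 4 tested genes of this list 2 rose with oxaliplatin, PROS1 and GGCX, 1 rose with sorafenib, and 1, GGCX, was higher with oxaliplatin than with sorafenib. That last call (GGCX adjusted p = 0.0278) was lost in 7 of the 17 alternatives (adjusted p up to 0.112). Their median log2 fold changes were 0.41, 0.22 and 0.19.

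EPHA2 binds ephrin-A ligands. All 5 ephrin-A genes were tested, and by edgeR 0 were called against untreated in either drug group, beside 31.7% and 4.8% of all genes. Of the 5, 0 had an unadjusted p under 0.05 with oxaliplatin and 1 with sorafenib, and DESeq2 called 0 and 1. The gene that DESeq2 called, EFNA2, was the most abundant of the 5 per length in untreated cells (29.6 ± 2.28 CPM per kb). It had 28.1 ± 2.16 CPM untreated, 22.9 ± 4.20 CPM with oxaliplatin and 17.7 ± 3.59 CPM with sorafenib (SD, n = 3 each). For sorafenib against untreated its log2 difference was -0.67 (edgeR adjusted p = 0.0595), and 3 of the 17 alternatives called EFNA2 lower, DESeq2 among them (adjusted p = 0.0137). Between the drug groups edgeR called 1, EFNA5 (20.0%, beside 10.3% of all genes). EFNA1, the ligand best known for EPHA2, was measured at 13.1, 29.6 and 19.1 CPM untreated, 14.9, 15.1 and 13.3 CPM with oxaliplatin and 11.1, 16.0 and 19.2 CPM with sorafenib, and the groups overlapped (adjusted p = 0.192 and 0.389 against untreated). EFNA5 was 1.43-fold higher with oxaliplatin than with sorafenib (log2 0.52 ± 0.14, adjusted p = 0.0429), a call lost in 10 of the 17 alternatives (EFNA5 adjusted p from 0.0174 to 0.155).

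Of 13 further EPH genes 5 were tested, and 3, EPHA4, EPHA6 and EPHA7, were higher with oxaliplatin both than untreated and than with sorafenib. These are 60.0% of the tested genes, beside 16.2% and 5.2% of all genes called higher in the 2 comparisons. EPHA6 rose from 1.11, 1.22 and 1.01 CPM untreated to 6.33, 6.56 and 5.90 CPM with oxaliplatin, a 5.60-fold difference (log2 2.49 ± 0.24, adjusted p = 0.000822), and had 1.36, 2.33 and 2.09 CPM with sorafenib. EPHA7 rose from 52.1 ± 4.43 to 89.6 ± 10.0 CPM (SD, n = 3; log2 0.78 ± 0.14, adjusted p = 0.00400), where the correction for GC content and length gave a log2 of 0.35 (adjusted p = 0.0245), and it was 2.36-fold higher with oxaliplatin than with sorafenib (adjusted p = 0.000845). EPHA4 rose from 3.16 ± 2.01 to 8.16 ± 2.12 CPM (log2 1.37 ± 0.40, adjusted p = 0.0270) and lost the call when untreated library 2 or 3 (EPHA4 adjusted p = 0.0659 and 0.0895) or oxaliplatin library 1 or 2 (0.0866 and 0.0775) was left out. Its call against sorafenib (EPHA4 log2 1.70, adjusted p = 0.0278) was lost in 6 of the 17 alternatives (adjusted p up to 0.100). EPHB2, the most abundant of these 5 genes per length, had 232 ± 18.2 CPM untreated and 185 ± 24.4 CPM with oxaliplatin (log2 -0.33 ± 0.12, adjusted p = 0.0558), and 5 of the 17 alternatives called it lower, DESeq2 among them (EPHB2 adjusted p = 0.0391). With sorafenib 0 of the 5 were called against untreated by edgeR (beside 4.8% of all genes), 2 had an unadjusted p under 0.05, 1 in each direction, and DESeq2 called 1.

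SRC, the kinase that phosphorylates CDCP1, was measured at 231, 204 and 199 CPM untreated, 171, 165 and 217 CPM with oxaliplatin and 266, 246 and 233 CPM with sorafenib. It passed no test, with adjusted p-values of 0.252 and 0.272 against untreated and 0.0577 between the drug groups. The log2 difference between the drug groups was -0.43 ± 0.13, and 3 of the 17 alternatives called SRC lower with oxaliplatin, DESeq2 among them (adjusted p = 0.0239). Against untreated the correction for GC content and length called SRC lower with oxaliplatin (adjusted p = 0.0348). CSK, which inhibits SRC family kinases, fell 1.55-fold with oxaliplatin (log2 -0.64 ± 0.16, adjusted p = 0.0138), and the call was lost without oxaliplatin library 1 (adjusted p = 0.0575) or 2 (0.0526). PTK2, which encodes focal adhesion kinase, rose 1.34-fold with oxaliplatin (log2 0.42 ± 0.12, adjusted p = 0.0254), and the correction for GC content and length turned this to a log2 of -0.12 (adjusted p = 0.462). YES1, a kinase close to SRC, was uneven within groups, from 19.0 to 40.5 CPM untreated, 61.4 to 176 CPM with oxaliplatin and 51.7 to 200 CPM with sorafenib, and a near-identical pseudogene makes its counts uncertain. Both drug groups lay above all untreated libraries. The log2 differences of YES1 against untreated were 1.75 with oxaliplatin (edgeR adjusted p = 0.0662) and 2.29 with sorafenib (0.0767). DESeq2 called YES1 higher in both (adjusted p = 0.0218 and 0.00665). Of 9 tested genes in this list, CSK and PTK2 were the 2 called with oxaliplatin (22.2%, beside 31.7% of all genes). By edgeR 0 were called for sorafenib against untreated or between the drug groups, beside 4.8% and 10.3% of all genes. Of these 9, 1 had an unadjusted p under 0.05 with sorafenib and 2 between the drug groups, and DESeq2 called 1 in each.

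Adaptors and proximal effectors of these receptors rose with oxaliplatin where they were called. Of 20 genes, all tested, 7 rose, GAB1, SOS1, SOS2, PIK3CA, CRKL, STAT3 and VAV3, and 0 fell by edgeR, 0 at an unadjusted p under 0.05 and 0 by DESeq2. These 7 are 35.0% of the list, beside 16.2% of all genes called higher and 31.7% called in either direction. The median log2 fold change was 0.29 beside 0.02 over all genes. STAT3, a transcription factor downstream of several receptors, was measured at 95.2, 77.3 and 83.7 CPM untreated and at 150, 150 and 149 CPM with oxaliplatin (log2 0.81 ± 0.11, adjusted p = 0.00167). SOS1 and SOS2, the exchange factors that load RAS with GTP, rose 2.50-fold (log2 1.32 ± 0.23, adjusted p = 0.00379) and 1.88-fold (log2 0.91 ± 0.18, adjusted p = 0.00616). With the correction for GC content and length the log2 fold changes were 0.53 for STAT3, 0.84 for SOS1 and 0.57 for SOS2, and these 3 calls held. PIK3CA lost its call under that correction (log2 0.72 to 0.23, adjusted p = 0.103), and 35.8% of its exon length is shared with KCNMB3, a gene of 1.06 to 2.31 CPM on the other strand. GAB1, CRKL and VAV3 were also called by DESeq2 but were not followed through the other alternatives, this correction included. With sorafenib 0 of the 20 were called by edgeR (beside 4.8% of all genes), 4 had an unadjusted p under 0.05, all higher, and DESeq2 called 1.

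Of 18 genes that shed, ubiquitinate or dephosphorylate receptors, all tested, 4 rose and 1 fell with oxaliplatin, 27.8% of the list beside 31.7% of all genes. Those that rose were ADAM17, CBLB, PTPRJ and INPPL1, and HGS fell. INPPL1 rose by a log2 of 0.34 (edgeR adjusted p = 0.0282), a call lost in 7 of the 17 alternatives. ADAM17, a protease that sheds AXL and other receptors, rose from 46.7 ± 5.77 to 77.4 ± 2.97 CPM (SD, n = 3; log2 0.73 ± 0.15, adjusted p = 0.00674), and lost the call with the correction for GC content and length (ADAM17 log2 0.24, adjusted p = 0.102). ADAM17 shares 12.3% of its exon length with IAH1, GGCX 6.13% with MAT2A and HGS up to 11.4% with a single gene, all on the other strand. CBLB, a ubiquitin ligase of activated receptors, rose 1.73-fold (adjusted p = 0.0150) and lost the call with the same correction (CBLB log2 0.24, adjusted p = 0.435), without untreated library 2 (0.0548) and without oxaliplatin library 1 (0.0525) or 2 (0.0592). HGS, part of the sorting machinery that sends receptors to lysosomes, fell 1.29-fold (log2 -0.37 ± 0.10, adjusted p = 0.0174), and lost the call when libraries were scaled by size only (HGS adjusted p = 0.0616), without untreated library 3 (0.0636) and without oxaliplatin library 1 (0.0756) or 2 (0.0638). With sorafenib 1 of the 18, SOCS3, was called, higher (5.56%, beside 2.82% of all genes called higher).

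Among co-receptors of MET and of the semaphorin receptors related to it, ITGB4 and ITGB1 were called higher in both drug groups. Of 10 genes, all tested, 4 rose with oxaliplatin, PLXNB3, NRP2, ITGB4 and ITGB1, and 4 rose with sorafenib, CD44, ITGA6, ITGB4 and ITGB1. These are 40.0% of the list in either comparison, beside 16.2% and 2.82% of all genes called higher (31.7% and 4.8% in either direction). ITGB4, the integrin chain that pairs with ITGA6 and can associate with MET, was measured at 17.0, 13.2 and 11.7 CPM untreated, 31.0, 27.3 and 30.2 CPM with oxaliplatin and 45.4, 42.7 and 41.9 CPM with sorafenib, without overlap. It rose 2.11-fold with oxaliplatin (log2 1.08 ± 0.15, adjusted p = 0.00174) and 3.10-fold with sorafenib (log2 1.63 ± 0.15, adjusted p = 0.00136), and both calls held in each of the 17 alternatives. NRP2, a co-receptor for semaphorins and VEGF, rose 2.43-fold with oxaliplatin (log2 1.28 ± 0.26, adjusted p = 0.00660). ITGB1 rose with oxaliplatin (log2 0.52 ± 0.12, adjusted p = 0.0121; 0.116 with the correction for GC content and length), and its call with sorafenib (log2 0.53 ± 0.12, adjusted p = 0.0410) was lost in 10 of the 17 alternatives (ITGB1 adjusted p up to 0.159). ITGA6 rose 1.94-fold with sorafenib (adjusted p = 0.0242), a call lost in 6 alternatives (ITGA6 adjusted p up to 0.101).

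Of 39 further receptor tyrosine kinases 16 were tested, of which 2 rose and 1 fell with oxaliplatin and 1 rose and 1 fell with sorafenib. These are 18.8% and 12.5% of the tested genes, beside 31.7% and 4.8% of all genes. EGFR rose in both drug groups as MET did, from 281, 265 and 297 CPM untreated to 473, 474 and 442 CPM with oxaliplatin and 356, 514 and 473 CPM with sorafenib. The adjusted p was 0.00503 with oxaliplatin (log2 0.72 ± 0.13, and 0.37 with the correction for GC content and length) and 0.0273 with sorafenib (log2 0.67 ± 0.13), and the second call of EGFR was lost in 6 of the 17 alternatives (adjusted p up to 0.111). ROR1, a receptor for WNT5A, rose 2.61-fold with oxaliplatin (log2 1.38 ± 0.19, adjusted p = 0.00174) and was 2.01-fold higher there than with sorafenib (adjusted p = 0.0102). FGFR4, a fibroblast growth factor receptor, fell 1.62-fold with oxaliplatin (log2 -0.70 ± 0.12, adjusted p = 0.00373). PDGFRB, a receptor for platelet-derived growth factor and also among the fibroblast markers, fell from 5.97 ± 0.850 to 2.56 ± 0.119 CPM with sorafenib (SD, n = 3; log2 -1.22 ± 0.20, adjusted p = 0.0120) and lost the call without untreated library 3 (adjusted p = 0.0530) or sorafenib library 2 (0.0612) or 3 (0.0603).

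**Figure D5:**
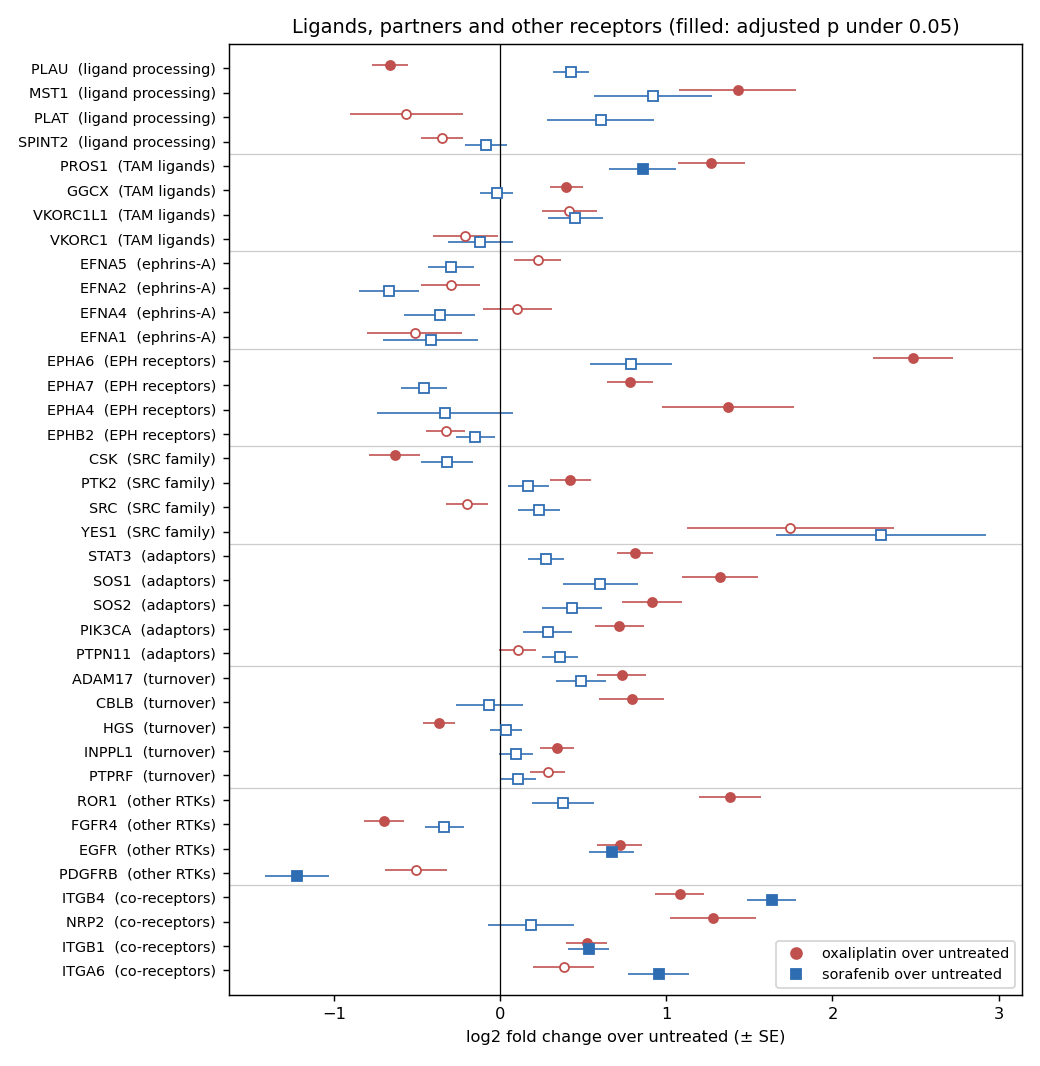
Log2 fold change over untreated (horizontal axis, with SE) of the ligands, partners, effectors and other receptors with the smallest adjusted p or the highest level per length of each list, for oxaliplatin (circles) and sorafenib (squares); filled symbols have an adjusted p under 0.05. ITGB4, ITGB1, PROS1 and EGFR are filled in both comparisons, and PLAU, FGFR4, CSK and HGS are the filled circles to the left of 0.

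For each of MET, AXL, EPHA2 and CDCP1 the 3 most similar of 10134 protein-coding genes averaging 5 CPM or more were named by the Pearson correlation of log2 levels over the 9 libraries. MET was most like SEL1L (0.99), ERLIN2 (0.98) and FNBP4 (0.98), of which SEL1L, a subunit of the complex that degrades misfolded proteins of the endoplasmic reticulum, rose 1.67-fold with oxaliplatin (adjusted p = 0.00582) and 1.84-fold with sorafenib (adjusted p = 0.0134; lost in 5 of 17 alternatives, SEL1L adjusted p up to 0.0694). As with MET, the correction for GC content and length reduced the rise of SEL1L with oxaliplatin, from a log2 of 0.74 to 0.30. AXL was most like ADCY3 (0.99), KLHL21 (0.98) and AKNA (0.97), and EPHA2 was most like DESI1 (0.98), PEX7 (0.98) and ERFE (0.98). CDCP1 was most like VPS53 (0.99), E2F7 (0.99) and UBASH3B (0.98). E2F7, a repressor of the E2F family, had 33.4 ± 4.53 CPM untreated, 16.1 ± 2.30 CPM with oxaliplatin and 67.8 ± 11.3 CPM with sorafenib (SD, n = 3 each), a 2.07-fold fall (adjusted p = 0.00305) and a 2.03-fold rise (adjusted p = 0.0131; 0.0567 without untreated library 2, 0.0612 and 0.0671 without sorafenib library 2 and 3). UBASH3B, a tyrosine phosphatase that acts on receptors and their partners, fell 1.51-fold with oxaliplatin (adjusted p = 0.00879) and rose 1.77-fold with sorafenib (adjusted p = 0.0120; UBASH3B 0.0598 and 0.0622 without sorafenib library 2 and 3). Of the genes most like MET and CDCP1, 3 were called against untreated with neither drug. Adjusted p-values with oxaliplatin and sorafenib were 0.221 and 0.139 for VPS53, 0.0543 and 0.0994 for ERLIN2, and 0.0685 and 0.0923 for FNBP4. All these genes were picked on the same 9 libraries, so their fold changes and p-values follow largely from the choice and lend no support. A similar pattern over 9 libraries in 3 groups is a description of these libraries.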

How the data were processed

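The deposited values are raw integer counts of reads over 60683 genes, 1 file for each of 9 libraries, which the authors made with featureCounts against GRCh38, per the submitters' processing notes. The notes also name DESeq2. Aligner, annotation, strandedness and treatment of multi-mapped reads are not given in the sources used here. TRIzol RNA was used to make mRNA libraries sequenced on an Illumina NovaSeq instrument, per the labels' protocols.

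Counts were analysed in R 4.3.3 with edgeR 4.0.16 (filterByExpr, TMM factors from 0.944 to 1.05, robust quasi-likelihood fit with 1 coefficient per group over all 9 libraries, biological coefficient of variation 0.224). The 3 contrasts were tested 2-sidedly, with Benjamini-Hochberg adjustment over 16159 genes, and adjusted p under 0.05 counted as a call. The standard error is the absolute log2 fold change over the square root of F. Levels are CPM with TMM factors, errors beside them are SD, and merged exon lengths are from GENCODE. Replicates of a group differed by more than sampling noise (chi-square per degree of freedom 16.9 to 36.3), so each counts as 1 library. Floors use 3 counts, without molecular identifiers, and cover counting error only.

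The 8 genes and all lists were chosen with earlier results of these data known. From each list up to 4 genes averaging 1 CPM or more and the smallest adjusted p in any comparison were named, plus the most abundant per length, direct ligands and partners, and the 3 genes most like each of MET, AXL, EPHA2 and CDCP1. GAS6-AS1 and AC011510.1 were named because they overlap members, and genes of a list called in a comparison were named after their values were seen. Alternatives were DESeq2 1.42.0, other scaling, other filters, 2 groups only, a replicate block and leaving out each library. A loess correction for GC content and length (span 0.5) was chosen after seeing the data. The code was tested on simulated data.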

Additional observations from a re-analysis of the deposited data

How the results depend on the processing

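Of 354 member fold changes recomputed over the 17 alternatives, 324 stayed on the same side of the threshold, 27 lost the call and 3 gained it. Of the 324, 10 uncalled values of MERTK (6) and TYRO3 (4) changed sign when a library was left out, and 0 called values did. Among the other named genes that were recomputed, only PTK2 with oxaliplatin had a called value that changed sign (log2 -0.12 with the correction for GC content and length). Uncalled values of several other named genes also changed sign, such as ERLIN2 with oxaliplatin (log2 0.27, and down to -0.13 over the alternatives). Calls among the 8 genes numbered 4 for oxaliplatin against untreated (3 to 5 leaving out a library), 2 for sorafenib against untreated (1 to 2 leaving out a library, 1 with the replicate block) and 4 between the drug groups (1 to 4 leaving out a library). Replicate numbers did not pair the samples: same-number deviations correlated at -0.11 to 0.04 and 0 of 9 libraries correlated best with their own number. Under the replicate block MET with sorafenib (adjusted p = 0.0719), EPHA2 with oxaliplatin (0.0855) and GAS6 between drug groups (0.0649) lost the call. Over all genes the calls were 5123 for oxaliplatin (2913 to 5403 leaving out a library), 775 for sorafenib (113 to 1743; DESeq2 1796, 2 groups only 311, replicate block 184, GC and length correction 1235) and 1659 between drug groups (572 to 1949; replicate block 809). The higher share of oxaliplatin calls was 51.1%, 65.4% with scaling by library size only, which moved the median of all genes by 0.12 (log2), and 36.1% with the GC and length correction. EPHA2 was called higher with sorafenib under that correction (adjusted p = 0.0464). Without division by length MET stood above EPHA2 in untreated cells too, and the causes of these shifts were not tested. Where an arm keeps 2 libraries, fewer samples set the spread. Counts of 7 to 22 for MERTK and 0 to 7 for MST1R limit both.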
